A study of Mus musculus with 8 samples.

Results

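Tenm2 encodes teneurin-2, a large transmembrane protein of neurons that reaches across the synaptic cleft and binds latrophilin receptors on the facing cell. Teneurins guide the matching of axons with their targets, and Tenm2 is among the genes whose transcripts carry very long introns. Ptbp2, the neuronal polypyrimidine tract binding protein, contacts pyrimidine-rich stretches of RNA, often in introns, and is known for keeping exons out of the mRNA of developing neurons.

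The RNA that Ptbp2 touches was recovered by HITS-CLIP, in which ultraviolet light crosslinks protein to RNA and the bound fragments are sequenced as short tags. All 8 libraries came from cortex of wild-type CD1 embryos at embryonic day 18.5, with no treatment given in the labels and 4 libraries (1 to 4) from each of 2 brains. In the library codes, 2 libraries of each brain share the letter a and 2 the letter b. The permutation tests below did not use that letter. The brains are the biological replicates, and the libraries of a brain share 1 animal. Every p-value below therefore measures the spread between libraries, which may be technical. No input RNA, other antibody or animal lacking Ptbp2 was analysed here. A level of tags thus cannot separate binding from the amount of Tenm2 RNA, nor fewer cells of a type from less RNA per cell. Markers of cell types were not analysed here, because no gene annotation of the build was used.

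The Tenm2 tags were taken as those with their midpoint on the minus strand of chromosome 11 between 35820000 and 37050000 (mm9). They numbered 9919 of 3098854 tags, or 0.320%. The gene is read from the high to the low coordinate, so distances below run from the upper edge of that interval in the direction of transcription. The locus was chosen by its dense tag clusters over all libraries pooled. Its level, number of clusters, cluster spacing and share of tags in clusters are thus only described beside the genome, without a test. RefSeq's GRCm38.p6 gene table lists Tenm2 (also Odz2) on the minus strand of chromosome 11, between the protein-coding genes Wwc1 and Mat2b. Inside Tenm2 it lists 6 non-coding genes (5 long non-coding RNAs and 1 small nuclear RNA), and 1 more crosses its end. Their positions in mm9 were not used, and tags of those on the same strand could not be told apart from those of Tenm2. Exons and introns were not assigned for the same reason.

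The edges of the interval were checked against the tags. At the upper edge the minus strand went from 0 tags in the kilobase outside to 79 tags in the kilobase inside, and from 28 to 759 over 100 kb. The lower edge was not marked in this way, with 119 tags in the 100 kb outside and 178 inside. The plus strand of the interval held 124 tags, so that 98.8% of the tags lay on the minus strand (exact Clopper-Pearson 95% interval 98.5 to 98.97%, which covers counting error only). The interval held 8.06 tags per kb. Cutting the genome into strand-specific pieces of the same length gave 4350 pieces with tags, of which 3 held more tags than Tenm2, while the median piece held 551. The pieces lay on a fixed grid that can split a gene, whereas the interval was set around Tenm2, so this rank favours Tenm2.

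Tags were spread unevenly along the interval. The first 100 kb held 759 tags and the second 824, and density then fell to 3.50 tags per kb between 200 and 300 kb. From 400 to 700 kb it was 14.5, 21.99 and 14.7 tags per kb in successive 100 kb steps, the highest of the interval. Beyond 900 kb it stayed at 2.44 tags per kb or below. The middle of the interval thus held its densest tags, and its far end the fewest.

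**Figure D1:**
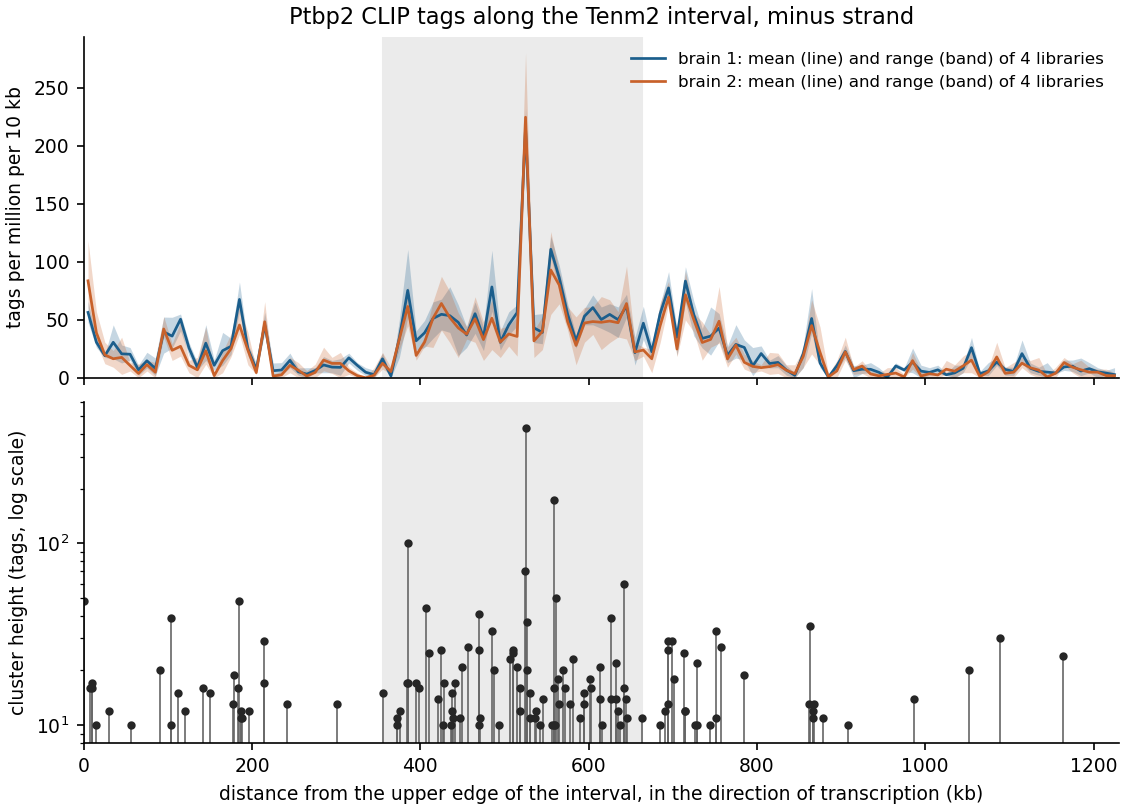
Upper panel: Ptbp2 tags in CPM (counts per 1000000 tags of a library) in 10 kb windows on the minus strand, against the distance from the upper edge of the Tenm2 interval (kb); lines are means and bands the range over the 4 libraries of a brain. Lower panel: height (log scale) of each of the 132 clusters. The grey stretch holds 51.0% of the tags, and the window that holds the tallest cluster, 525 kb from the edge, stands highest in both brains.

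Tags that overlapped on one strand were joined into clusters, whose height is the largest number of tags over 1 base. Clusters of height 10 or more numbered 132 in Tenm2, 0.579% of the 22803 in the series. They held 3382 tags, 34.1% of those of the locus, against 15.7% over all tags. At the threshold, 19 clusters stood at exactly 10 and 25 just below it at 9. The median height was 15, against 14 over all clusters, and the median width was 52 nt, with widths of 27 to 188 nt. Of them 42 were 20 or more tags high, 6 were 50 or more and 3 were 100 or more. Single tags with no overlapping neighbour made up 18.3% of the Tenm2 tags, against 38.2% of all tags.

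Linking clusters that lay 20 kb apart or less gave one dense stretch of 77 clusters from 36386301 to 36694373, rank 3 by number of clusters among 13894 such groups. This stretch begins 356 kb from the upper edge and ends at 664 kb. It covered 25.0% of the interval and held 51.0% of its tags, at 16.4 tags per kb against 5.27 in the remainder. Clusters lay close together: 62 of the 132 (46.97%) had another within 1 kb, compared with 20.6% of all clusters. The choice of the locus by its dense clusters favours such a difference. The longest stretch without a cluster ran from 909 to 987 kb and still held 148 scattered tags.

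The tallest cluster lay on the minus strand from 36524535 to 36524582, 525 kb from the upper edge. It was 14th tallest in the series and held 429 tags, all of them over a core of 10 nt from 36524553 to 36524562. In brain 1 its level in CPM was 123, 133, 144 and 141 in libraries 1 to 4. In brain 2 it was 127, 137, 126 and 206 CPM. The brains overlapped, with library 4 of brain 2 above every other library. Of these tags 74.6% shared their 5′ end at 36524571. With each position counted once per library, 86 of the 429 tags remained. The deposited list does not say whether tags at one position are separate molecules.

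The tallest cluster did not stand alone. A cluster of height 70 lay 504.5 nt upstream, from 36525040 to 36525086, and clusters of height 20 and 37 lay 899.5 and 994.5 nt downstream. Together the tags within 1 kb of the centre numbered 577, and the 10 kb window around them was the fullest of the locus, with 675 tags. That window reached 216 ± 13.8 CPM in brain 1 and 225 ± 37.5 CPM in brain 2 (SD, n = 4 libraries each). The next fullest, at 36490001, 36480001, 36330001 and 36350001, held 322, 260, 242 and 229 tags, and each held 3 to 5 clusters. The last pair lies just beyond the dense stretch, toward the lower edge of the interval.

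**Figure D2:**
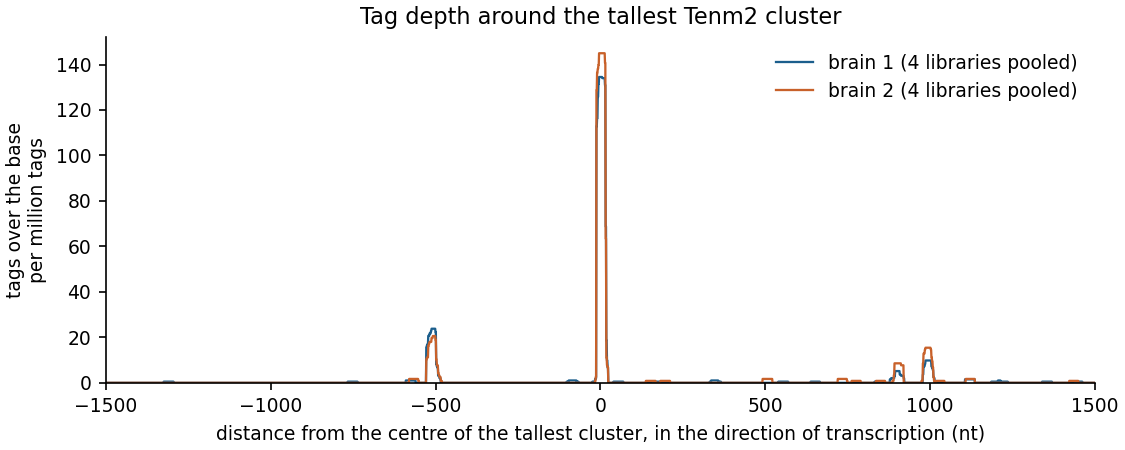
Number of tags over a base, in CPM, read at every other base within 1500 nt of the centre of the tallest Tenm2 cluster. The distance (nt) runs in the direction of transcription, and the 4 libraries of each brain are pooled. Both brains show a narrow summit of similar height at the centre, 1 smaller peak 504.5 nt upstream and a pair 899.5 and 994.5 nt downstream.

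The second cluster, from 36491428 to 36491504, held 198 tags and had a height of 172. Its level was 62.3, 74.2, 60.9 and 63.9 CPM in brain 1 and 56.1, 42.5, 70.4 and 83.2 CPM in brain 2. The brain 2 libraries lay on both sides of those of brain 1. The third cluster, from 36664762 to 36664828, held 104 tags and had a height of 101. It reached 33.0, 37.1, 26.1 and 57.5 CPM in brain 1 and 14.96, 33.4, 26.4 and 26.3 CPM in brain 2, again with overlap. These 3 clusters together made up 7.37% of the Tenm2 tags. The 10 tallest made up 11.1%, and 8 of the 10 lay in the dense stretch.

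The clusters differed in how sharply their tags ended. The most used 5′ end held a median of 47.1% of a cluster's tags, and in 56 of the 132 clusters it held over 50%. Neither value was computed for all clusters of the series. The share at the most used 5′ end was 74.6% in the tallest, 56.1% in the second and 50% in the third cluster. It was 17.0% in the cluster from 36423524 to 36423601, which held 47 tags at 17 different 5′ ends. Tags of the full 30 nt made up 37.5% and 31.8% of the 2 tallest clusters, and 75.96% of the third.

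The other clusters among the 10 tallest were smaller, with heights of 41 to 70. The fifth, from 36407723 to 36407771, held 60 tags at 17.5 ± 6.07 CPM in brain 1 and 23.1 ± 6.72 CPM in brain 2 (SD, n = 4 libraries each). The sixth, from 36489027 to 36489095, held 42 tags of brain 1 and 11 of brain 2, and library 2 of brain 2 had 0 of them. A count of 0 in that library allows a level of up to 3 tags, so its absence there could not be shown. The libraries of the brains overlapped for each of the 10 tallest clusters, and the 7 smaller ones fell below the count filter of the test described further on.

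**Figure D3:**
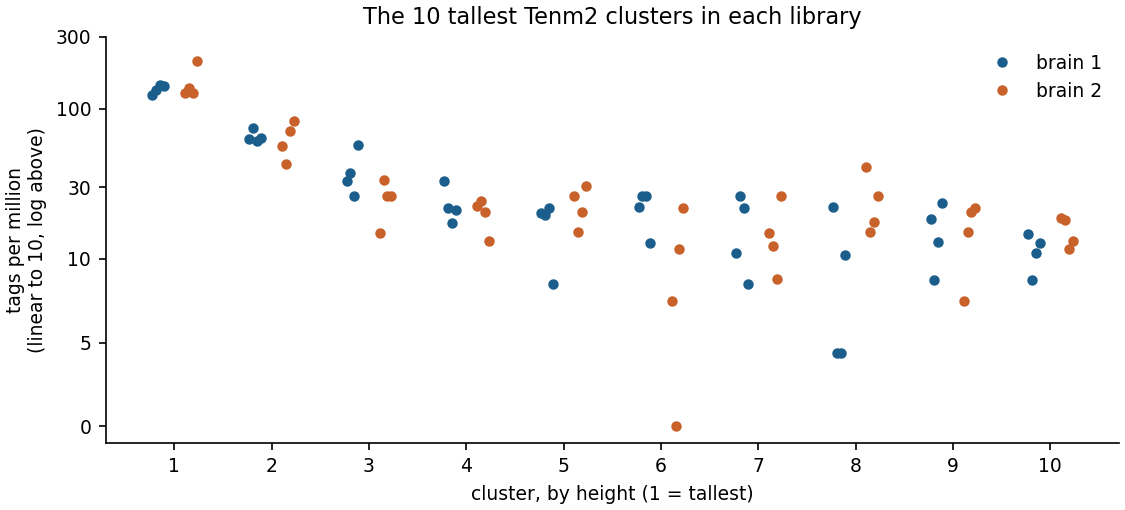
Level of the 10 tallest Tenm2 clusters in CPM (linear up to 10, logarithmic above), 1 point per library and 4 per brain. The tallest cluster lies between 123 and 206 in all 8 libraries, and the brains overlap for each of the 10 clusters.

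One of the 10, the eighth, lay at the very start of the interval. The cluster from 37049441 to 37049504, centred 0.527 kb from the upper edge, held 21 tags of brain 1 and 28 of brain 2. Its levels were 22.0, 4.36, 4.35 and 10.6 CPM in brain 1 and 41.1, 15.2, 17.6 and 26.3 CPM in brain 2. Library 1 of brain 1 overlapped the range of brain 2 and the other 3 lay below it. The first 10 kb window, from 37040001 to 37050000, is described here because its values stood out after they were seen. It held 30, 26, 22 and 31 tags in brain 1 and 22, 20, 25 and 27 in brain 2. These correspond to 55.0, 56.7, 47.9 and 66.0 CPM against 82.3, 60.8, 73.3 and 118 CPM. By total tags, library 2 of brain 2 overlapped brain 1, and library 4 of brain 2 was the highest. With trimmed-mean scaling the levels were 49.4, 51.0, 46.3 and 65.7 CPM against 94.8, 71.1, 75.1 and 109.9 CPM, and the brains did not overlap. On that scaling the log2 difference, brain 2 minus brain 1, was 0.70 ± 0.20 (SE) and did not pass in limma voom (adjusted p = 0.0749, and 0.0410 to 0.693 over the alternatives).

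To ask whether the brains differed along Tenm2, tags were compared in all windows and clusters of the genome that passed a count filter. Of the 123 Tenm2 windows of 10 kb, 46 passed that filter, and 0 were called different between the brains (limma voom, adjusted p under 0.05). Over the genome 45 of 3757 windows were called, or 1.20%, with 44 higher and 1 lower in brain 2. At an unadjusted p under 0.05 there were 2 Tenm2 windows, 1 in each direction, and 10.3% of all windows. The Tenm2 windows that passed had a median log2 difference of 0.037, beside -0.0057 over all windows tested. Scaling by total tags moved these medians to -0.14 and -0.21.

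Of the 132 clusters, 3 passed the filter, those 3 tallest, and 0 of them were called, with 0 at an unadjusted p under 0.05 (limma voom). Over the genome 6 of 466 clusters were called, or 1.29%, with 5 higher and 1 lower in brain 2. The log2 differences were -0.068 ± 0.15, -0.25 ± 0.20 and -0.65 ± 0.39 (SE, adjusted p = 0.845, 0.511 and 0.350). The sign of the first turned under total scaling (0.10) and without library 1 or library 3 of brain 2 (0.025 and 0.013). The second was -0.091 without library 2 of brain 2. The trimmed-mean factors for clusters were computed from clusters alone, so these differences are not on the scale of the windows. By total tags the median tested cluster differed by 0.16 and the median tested window by -0.21. On the window scale, the window that holds the tallest cluster differed by 0.23 ± 0.13 (SE, limma voom adjusted p = 0.552). A p above the threshold does not show that the brains are alike. Without library 1 of brain 1, 16 windows and 3 clusters were called over the genome, and without library 3 or 4 of that brain 9 clusters, in each case with 0 in Tenm2.

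The level of the whole locus was 3526, 3498, 3261 and 3220 CPM in brain 1 and 2809, 2567, 2919 and 3463 CPM in brain 2. Brain 2 was lower except for its library 4, which lay among those of brain 1. The mean log2 level was lower in brain 2 by an amount that did not pass (difference -0.21, two-sided exact permutation p = 0.0857, smallest possible 0.0286). Scaling by a trimmed mean of log ratios gave 3168 ± 26.5 CPM in the first brain and 3113 ± 133 CPM in the second (SD, n = 4). The difference was then -0.026 (exact permutation p = 0.429). When scaled by total tags, the median of the 3757 windows tested over the genome differed by -0.21. The median of the 466 clusters tested differed by 0.16. Without library 4 of brain 2 the Tenm2 difference by total tags was -0.29 (exact permutation p = 0.0286, the smallest possible), and with tags outside clusters alone -0.26 (p = 0.0286).

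**Figure D4:**
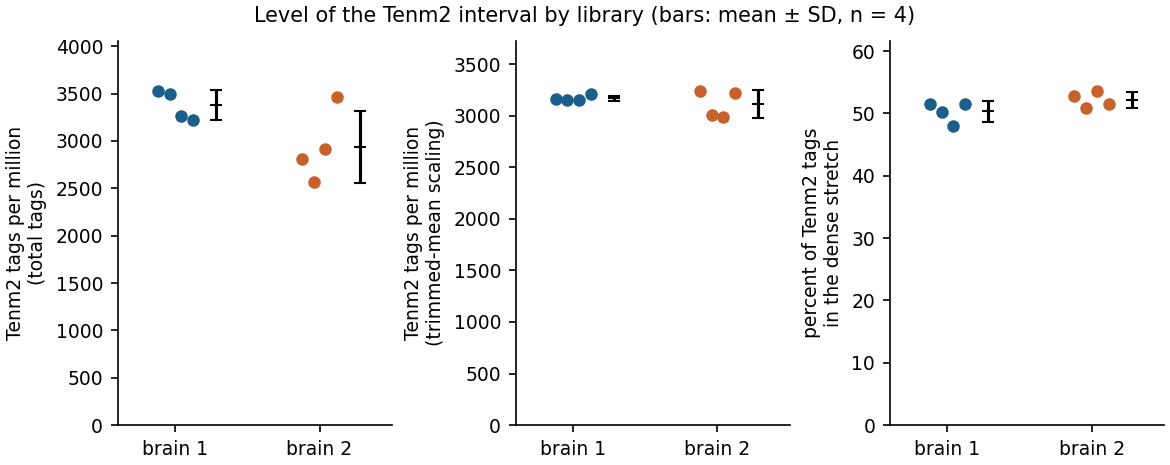
Tenm2 level in CPM by total tags (left) and by trimmed-mean scaling (middle), and the percent of Tenm2 tags in the dense stretch (right), 1 point per library, with mean ± SD (n = 4). Brain 2 spans 2567 to 3463 by total tags and overlaps brain 1 in all 3 panels.

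How the tags were spread within the locus does not depend on library scaling. The dense stretch held 51.5%, 50.2%, 48.0% and 51.5% of the Tenm2 tags in brain 1 and 52.7%, 50.9%, 53.6% and 51.5% in brain 2. The difference of 1.85 percentage points was within the spread of libraries (exact permutation p = 0.171), and 1.09 points without library 3 of brain 1. Clusters held 33.5 ± 1.73% of the tags in the first brain and 35.8 ± 3.61% in the second (SD, n = 4), a difference of 2.28 points that did not pass (exact permutation p = 0.343). Without library 4 of brain 2 it was 0.549 points. Clusters were called on all libraries pooled, of which brain 1 is the deeper. By 100 kb step, the shares in the 2 brains followed each other closely, for example 21.8 ± 0.607% and 22.7 ± 1.24% between 500 and 600 kb (SD, n = 4). The widest gap was between 100 and 200 kb, at 9.04 ± 1.45% and 6.88 ± 0.664%. It was chosen after the values were seen and has no test. Over the 123 windows, the log2 levels of the brains had Pearson's r = 0.900 and Spearman's rho = 0.943, as a description of sites that are not independent and of pooled libraries that differ in depth.

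Clusters were then compared by the brains that gave their tags. Of the 132 called on pooled tags, 128 held tags of both brains, 4 of brain 1 alone and 0 of brain 2 alone. The pooled threshold of 10 tags favours clusters with tags of both brains. The same count was not made over all clusters, so nothing particular to Tenm2 can be read from it. Tags of all 8 libraries occurred in 36 clusters (27.3%, against 23.8% of all clusters). Calling clusters of height 5 or more in each brain alone gave 229 in brain 1 and 111 in brain 2. Of those in brain 2, 82 (73.9%, exact 95% interval 64.7 to 81.8%) overlapped one of brain 1, and of those in brain 1, 83 (36.2%, 30 to 42.8%) overlapped one of brain 2. Over the whole genome the same shares were 66.7% of 21063 clusters and 33.0% of 42612. The intervals cover counting error only and take neighbouring clusters as independent, so they are no test against the genome. Brain 1 held 6537 Tenm2 tags and brain 2 held 3382, and the lists were not thinned to equal depth. Of single tag ends, 665 of 2171 distinct 5′ ends of brain 2 (30.6%) recurred exactly in brain 1. Shifted by 1 nt, 137.5 recurred (the mean of both directions), a ratio of 4.84, which was 4.80 over all tags.

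Tag length was not used in choosing the locus. All tags of the list were 27 to 30 nt long, so a difference in length lies within that range. Full-length tags of 30 nt were 49.6%, 50.97%, 52.2% and 53.6% of the Tenm2 tags in brain 1 and 47.9%, 49.5%, 47.2% and 46.9% in brain 2. In the rest of each library they were 42.2 to 44.7% and 39.8 to 44.2%. Tenm2 was higher in 8 of 8 libraries, by 6.89 ± 2.26 percentage points (SD of the differences, exact sign-flip permutation p = 0.00781, the smallest possible). The difference ran from 2.68 points, in library 4 of brain 2, to 8.93. Within a brain it was 7.78 and 5.996 points (exact permutation p = 0.125 each, the smallest possible with 4 libraries). Positions repeated within a library were also more frequent in Tenm2, at 19.8% of tags against 11.5% over all tags, and among brain 2 libraries from 13.2 to 30.5%. They made up 24.6% of the dense stretch and 25.1%, 18.3% and 18.6% of the 3 other groups described next. With each position counted once per library, the difference in full-length tags was 7.74 points.

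The dense stretch was set beside the 3 other groups with the most clusters, which were chosen by the same values, so densities are a description. It held 25.0 clusters per 100 kb. The group on chromosome 2 (6461055 to 6900698) held 51.2, that on chromosome 16 (6809381 to 7201718) 23.7 and that on chromosome 6 (77244300 to 77541943) 24.5. Clusters held 45.5% of the tags of the dense stretch, and 56.0%, 37.3% and 36.3% of those of the other groups, in that order. The tallest Tenm2 cluster, at 429, exceeded the tallest of each of them, at 230, 64 and 62. Full-length tags made up 49.6% of the dense stretch and 51.9%, 53.1% and 49.5% of the other groups. Within libraries the dense stretch differed from them by -3.25, -4.25 and -0.77 points, and was higher in 2, 2 and 4 of the 8 libraries. These differences did not pass (adjusted exact permutation p = 0.0938, 0.0938 and 0.656 over 3 comparisons). The higher share of full-length tags was thus not shown to be particular to Tenm2. The ratio of the dense stretch to each group changed between brains by 0.11, 0.27 and 0.00 on the log2 scale, none of which passed (adjusted exact permutation p = 0.0857, 0.0857 and 1.00).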

How the data were processed

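The authors deposited one list of mapped tags, a row giving the chromosome, start, end and strand of 1 tag, and a name starting with the code of its library. The 8 codes match the sample titles, and 0 tags were unassigned. Bowtie and the builds mm8 and mm9 are named in the submitters' processing notes, with no version. Tags reach position 197194446 on chromosome 1, past its end in mm8, so positions are mm9, counted from 1. Library totals ran from 228424 to 545387 tags. The sources used here do not give the handling of repeated reads.

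Members, lists and tests were chosen with earlier results of these data known. Tags were counted by midpoint in the interval, in strand-specific 10 kb windows and in clusters joined at 1 nt of overlap. Windows and clusters of the whole genome were compared with limma 3.58.1 (voom, R 4.3.3) and Benjamini-Hochberg adjustment, threshold 0.05. The filter asked for the rate of 10 tags at median depth in 4 libraries and 15 tags in all. Scaling factors were trimmed means of log2 ratios, with 30% of the ratios and 5% of the levels trimmed from each end. They were computed separately for windows and for clusters, and the locus level used those of the windows. Single values per library were compared by exact permutation tests. Named sites were the 10 tallest clusters, the 5 fullest windows and any called site. No sequence is printed, since no mm9 genome was used, and the teneurin and latrophilin gene list was not analysed here for want of mm9 gene positions. Same-numbered libraries of the brains did not deviate together (r = -0.032 to -0.0062 over windows), so the numbers were not taken as pairs.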

Additional observations from a re-analysis of the deposited data

Results flagged for a closer look

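In 42 sets of 4 libraries of a brain, 2 showed 1 library well apart; about 1 in 20 sets would do so by chance. Library 4 of brain 2 held 206 CPM of the tallest cluster (start 36524535), against 126 to 137 CPM in the other libraries of that brain. That library was the shallowest, and 30.5% of its Tenm2 tags were repeats of a position, the highest share of the 8. Outside Tenm2 its share of repeats was 18.6%, again the highest of the 8. With each position counted once per library, it held 7 tags of that cluster. The other libraries of brain 2 then held 10, 10 and 7. The cause was not tested. Library 4 of brain 1 held 8.52 CPM, from 4 tags, of the cluster that starts at 36407723, against 19.6 to 21.8 CPM in the others.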

How the results depend on the processing

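Depth limits single sites: 3 of 132 clusters and 46 of 123 windows held enough tags to be tested, and both brains were 1 animal each. The level of the locus kept its direction except when scaled to 3 other groups, chosen after seeing the data (log2 difference 0.071). It passed with tags outside clusters (-0.26, exact permutation p = 0.0286) and ranged from -0.29 to -0.15 with a library left out. With the replicate block, Tenm2 had 1 called window, at 37040001 (0.72, adjusted p = 0.0410); the block left the locus at -0.21 (exact sign-flip p = 0.25), and both within-locus shares uncalled. For full-length tags, added after seeing the data, brain 1 alone gave 7.78 and brain 2 alone 5.996 points. Overlap of clusters of brain 2 was 61.1% at height 3 and 82.8% at height 10. Windows called over the genome were 8 (total scaling), 13 (no filter), 14 (repeated positions once), 22 (libraries whose codes share a letter summed) and 16 to 45 with a library left out. Clusters were 15 (total scaling), 3 (letters summed) and 3 to 9 with a library left out. In none of these was a Tenm2 site called, other than the window named. Signs turned for uncalled sites: under total scaling at 36480001 (-0.12), 36350001 (-0.15) and the tallest cluster (0.10), and without the filter at the first pair (-0.095 and -0.11). With a library left out, the windows at 36490001, 36330001 and 36350001 ranged from -0.30 to 0.083, -0.18 to 0.12 and -0.069 to 0.092, and the tallest cluster from -0.14 to 0.025. The causes were not tested.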

Other observations

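Among 180 other groups of 10 or more clusters, the level of the dense stretch over the 8 libraries was most like those of 3 groups on the plus strand. They lay on chromosome 16 from 6513169 to 6641778 (Pearson's r = 0.957), on chromosome 4 from 32399357 to 32460500 (r = 0.95) and on chromosome 12 from 110782392 to 110875828 (r = 0.948). The median over all groups was r = 0.723. These are descriptions of 8 points that share library totals, and the group on chromosome 4 held 429 tags.

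Without the count filter, all 132 Tenm2 clusters could be compared between brains, and 0 were called (limma voom). At an unadjusted p under 0.05 there were 17 of the 132, of which 13 were lower and 4 higher in brain 2. Over all clusters there were 1363 of 22803, or 5.98%, so the share was larger in Tenm2. The median log2 difference was -0.37 in Tenm2 and -0.15 over all clusters. Clusters were called on pooled tags, where brain 1 weighs more. Windows of 20 or more tags, also without the filter, gave 11 of 92 in Tenm2 at that p (10 lower, 1 higher). Over the genome there were 2353 of 34816 such windows, or 6.76%. One cluster, from 36539956 to 36539999, held 24 tags of brain 1 and 2 of brain 2, and was chosen after its values were seen.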
